A study of Homo sapiens with 6 samples.

Results

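Mitochondria fold their proteins with a machinery of their own, and the 10 genes described here encode its main nuclear-encoded parts: the chaperonin HSPD1 with its lid HSPE1, the matrix Hsp70 HSPA9 with its co-chaperones DNAJA3, GRPEL1 and GRPEL2, the Hsp90 homologue TRAP1, the disaggregase CLPB, and the prohibitins PHB1 and PHB2. They were chosen by symbol, as the rows of the count files whose NCBI Gene ID maps to one of these names, and all 10 were found among the 28395 gene IDs of each file. HCT116 cells, a line from a human colorectal carcinoma, had been kept for 24 h with TR-107 at 50 nM (3 libraries) or with its vehicle, DMSO at 0.1% (3 libraries). TR-107 is a small-molecule activator of ClpP, a protease of the mitochondrial matrix. All libraries are from this 1 line. They are labelled biological replicates, but whether each came from its own culture is not stated, and p-values here reflect library-to-library spread, part of which may be technical.

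When unfolded proteins build up in the matrix, cells can raise the transcription of mitochondrial chaperones and proteases, a programme known as the mitochondrial unfolded protein response. It was first described through HSPD1 and HSPE1, and in mammals it has been linked to the transcription factors ATF4, ATF5 and DDIT3 (CHOP) and to the heat shock factor HSF1. The comparison asked whether the mitochondrial chaperones rose after TR-107.

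Of the 10 genes, 2 were higher and 7 were lower after TR-107 than in DMSO, and 1, DNAJA3, was not called. HSPA9 and GRPEL2 rose, by 1.30-fold and 1.34-fold, while HSPE1 was 2.84-fold lower, HSPD1 1.65-fold lower and PHB1 1.61-fold lower. A gene is called here at a Benjamini-Hochberg adjusted p under 0.05 in edgeR's quasi-likelihood test, adjusted over all 13767 genes tested. Of those, 57.8% were called (29.2% higher and 28.6% lower), so that being called is common in these libraries. The median log2 fold change (TR-107 over DMSO) was -0.46 for the 10 genes and 0.01 for all genes tested. That median and the sums below include DNAJA3, whose uneven counts are not read as its level. Among the 9 genes other than DNAJA3 the middle value was that of CLPB, -0.33. For 9 of the 10 the TR-107 and DMSO libraries did not overlap, 2 of them with TR-107 above and 7 with TR-107 below. That was so for 62.4% of all genes tested, 31.5% with TR-107 above and 30.9% with TR-107 below. Summed over the 10 genes, the level was 3555, 3632 and 3791 CPM (counts per 1e6 counts of a library, scaled by TMM) in the TR-107 libraries, against 4845, 4659.8 and 4826 CPM in the DMSO libraries. HSPD1 makes up most of that difference. Summed over the 9 other genes, the level was 2193, 2236.5 and 2292 CPM in the TR-107 libraries, against 2458, 2420.5 and 2427 CPM in the DMSO libraries.

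**Figure D1:**
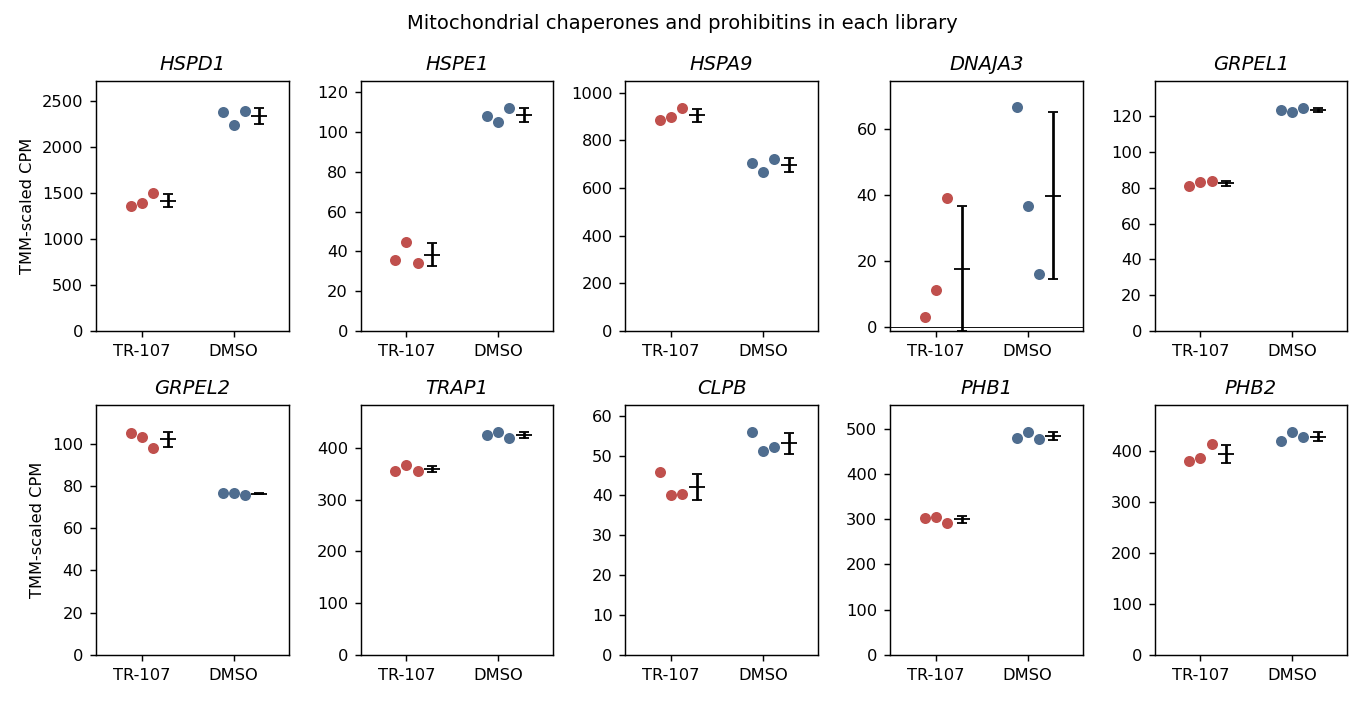
TMM-scaled CPM of each of the 10 genes in the 3 TR-107 libraries (red) and the 3 DMSO libraries (blue), each panel on its own linear axis, with the mean ± SD (n = 3) in black. HSPA9 and GRPEL2 lie higher in TR-107, 7 genes lie lower, and the DNAJA3 libraries spread over each other in both groups.

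HSPD1 (gene ID 3329) forms the barrel of the mitochondrial chaperonin, in which matrix proteins fold. It had 1362, 1396 and 1499.5 CPM in the TR-107 libraries, against 2387, 2239 and 2399 CPM in the DMSO libraries. Every TR-107 library lay well below every DMSO library. The means were 1419 ± 71.7 CPM in TR-107 and 2342 ± 88.7 CPM in DMSO (SD, n = 3 each). This gave a log2 fold change of -0.72, with an SE of 0.04 (edgeR adjusted p = 3.94e-20).

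HSPE1 (gene ID 3336) is the small ring that caps this barrel. It had 35.6, 44.8 and 34.2 CPM in the TR-107 libraries, against 108, 105 and 112 CPM in the DMSO libraries. The groups were far apart, and the second TR-107 library was the highest of its group. The means were 38.2 ± 5.76 CPM in TR-107 and 108 ± 3.50 CPM in DMSO (SD, n = 3 each). This gave a log2 fold change of -1.50, with an SE of 0.07 (edgeR adjusted p = 4.28e-19), the lowest of the 10.

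The level of HSPE1 is less certain than its depth alone would say. Its span lies within that of the readthrough gene HSPE1-MOB4, which had 0 to 3 counts per library, and MOB4, the gene at the far end of that readthrough, had 0 counts in all 6 libraries. In the GENCODE v29 annotation (GRCh38), 192 of the 950 bases of the principal HSPE1 transcript are shared with HSPE1-MOB4 on the same strand, 281 are shared on the opposite strand, where HSPD1 lies, and 477 are shared with no other gene. HSPD1 had far more counts than HSPE1, and whether strand was used in counting is not stated. The raw counts of HSPE1 were 610, 818 and 734 in the TR-107 libraries, against 2016, 2403 and 2708 in the DMSO libraries. How the authors' counting treated bases shared by several genes is not given in the sources used here, and its part in the HSPE1 values was not tested.

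HSPD1 and HSPE1 stand head to head on chromosome 2, at 197486584 to 197500274 on the minus strand and 197500379 to 197503449 on the plus strand (RefSeq, GRCh38.p14, as for all positions here), and both fell. The 104 bases between their RefSeq starts are shown because the 2 genes read away from this one stretch. In GENCODE v29 all 104 lie within an exon of some HSPE1 transcript, so they are upstream of HSPE1 only by the RefSeq start. The first line below is that interval, chr2:197500275-197500378 on the HSPE1 strand, with an NRF1 element and an E-box (CACGTG) in capitals. The second is chr2:197500062-197500090 on the HSPD1 strand, which lies within annotated exons of both genes and upstream of a second HSPD1 start. Its capitals mark 3 overlapping matches to the heat shock elements GAANNTTC and TTCNNGAA.
HSPD1-HSPE1 interval: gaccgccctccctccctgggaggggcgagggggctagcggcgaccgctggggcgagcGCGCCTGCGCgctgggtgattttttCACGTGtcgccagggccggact
HSPD1 heat shock elements: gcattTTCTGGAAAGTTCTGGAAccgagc

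Both strands were searched in the 250 bases before each annotated start. Among 35116 such windows in the RefSeq promoter table, 6.34% held the E-box, 5.07% the NRF1 element, 5.78% GAANNTTC and 6.62% TTCNNGAA. A window was matched for 9 of the 10 genes, GRPEL1 being the one without. The element TGATGNAA, to which C/EBP and ATF factors bind as dimers, occurred in 3.14% of all windows and in none of the 11 windows of these genes. The windows of TRAP1, CLPB and PHB1 held none of the motifs searched. Those of PHB2, which overlap each other, held the same match to TTCNNGAA, and that of DNAJA3 held 3 NRF1 elements. A match is a run of letters and says nothing of whether a factor is bound.

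The fold change of HSPE1 was larger than that of HSPD1, and their ratio was taken within each library. The ratio of HSPE1 to HSPD1 raw counts was 0.0262, 0.0321 and 0.0228 in the TR-107 libraries, against 0.0452, 0.0469 and 0.0467 in the DMSO libraries. Such a ratio does not depend on how libraries are scaled. Bases that both genes share could bear on it, but only the GENCODE annotation has such bases. The RefSeq spans of HSPD1 and HSPE1 do not overlap. Which gene models the counting used is not stated, and a part of shared bases in this ratio was not tested. The difference of its log2 was -0.79, with an exact two-sided permutation p of 0.1, the smallest that 3 libraries against 3 allow, and an adjusted p of 0.1 over the 4 ratios tested. None of the 4 ratios could therefore pass 0.05. In all 4 the TR-107 and DMSO values did not overlap. For GRPEL2/GRPEL1 and HSPA9/HSPD1 that had to be so, because the first gene was higher in every TR-107 library and the second lower. It therefore adds nothing to what the single genes show. How often the ratios of other gene pairs do not overlap was not computed.

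**Figure D2:**
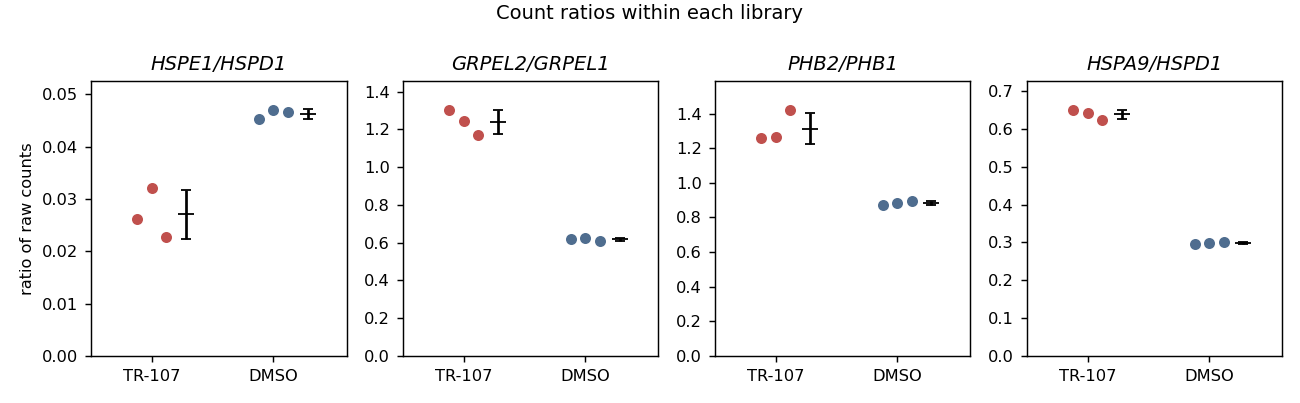
Ratio of raw counts of 2 genes within each of the 3 TR-107 libraries (red) and 3 DMSO libraries (blue), with the mean ± SD (n = 3) in black, on linear axes from 0. HSPE1/HSPD1 is lower in TR-107 (0.0228 to 0.0321, against 0.0452 to 0.0469 in DMSO), and the other 3 ratios are higher in TR-107.

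HSPA9 (gene ID 3313, also mortalin), the matrix Hsp70, pulls proteins through the inner membrane and folds them. It had 884, 896 and 936 CPM in the TR-107 libraries, against 706, 666 and 723 CPM in the DMSO libraries. All TR-107 libraries were above all DMSO libraries. The means were 905 ± 27.4 CPM in TR-107 and 698 ± 28.9 CPM in DMSO (SD, n = 3 each). This gave a log2 fold change of 0.37, with an SE of 0.04 (edgeR adjusted p = 2.41e-11).

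HSPA9 and HSPD1, the 2 major folding machines of the matrix, were called in opposite directions. The ratio of HSPA9 to HSPD1 counts was 0.649, 0.642 and 0.624 in the TR-107 libraries, against 0.296, 0.298 and 0.301 in the DMSO libraries, 2.14-fold higher in TR-107 (exact two-sided permutation p = 0.1). The ratio varied little within either group.

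The nucleotide exchange factors that release ADP from HSPA9 went in opposite directions. GRPEL1 (gene ID 80273, chromosome 4 from 7058895 to 7068064), the main exchange factor, had 80.8, 83.0 and 83.5 CPM in the TR-107 libraries, against 123, 122 and 125 CPM in the DMSO libraries. It fell by 0.58 on the log2 scale, with an SE of 0.05 (edgeR adjusted p = 7.86e-13). The spread within a group was at most 1.43 CPM (SD, n = 3), small beside the gap between the groups.

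GRPEL2 (gene ID 134266), its paralogue, which is linked to oxidative stress, had 105, 103 and 97.9 CPM in the TR-107 libraries, against 76.4, 76.6 and 75.9 CPM in the DMSO libraries. Its log2 fold change was 0.42, with an SE of 0.06 (edgeR adjusted p = 1.90e-08). The ratio of GRPEL2 to GRPEL1 counts was 1.30, 1.24 and 1.17 in the TR-107 libraries, against 0.620, 0.626 and 0.609 in the DMSO libraries, a log2 difference of 1.00 (exact two-sided permutation p = 0.1). Most of the principal GRPEL2 transcript is its own, and 127 of its 4089 bases lie opposite the antisense gene GRPEL2-AS1.

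HSPA9 and GRPEL2, the 2 genes that rose, both lie on chromosome 5, at 138553756 to 138575401 and 149345499 to 149354583. The 250 bases before the RefSeq start of each are shown because these are the members that rose. Other transcripts in GENCODE v29 start farther upstream: all 250 bases of the HSPA9 line lie within an HSPA9 exon there, and of the GRPEL2 line 69 bases lie within a GRPEL2 exon and 85 within an exon of AC131025.3, on the opposite strand. In the HSPA9 line, chr5:138575402-138575651 on the minus strand, the capitals mark an E-box, the only match among the motifs searched. In the GRPEL2 line, chr5:149345249-149345498 on the plus strand, the capitals mark 3 ETS elements (CCGGAAG), a motif that 8.52% of all windows held at least once. The windows of PHB2, which fell, overlap each other and held the same 2 ETS elements, and that of DNAJA3 held 1. The E-box was thus found before HSPA9, which rose, and between HSPD1 and HSPE1, which fell.
HSPA9 before RefSeq start: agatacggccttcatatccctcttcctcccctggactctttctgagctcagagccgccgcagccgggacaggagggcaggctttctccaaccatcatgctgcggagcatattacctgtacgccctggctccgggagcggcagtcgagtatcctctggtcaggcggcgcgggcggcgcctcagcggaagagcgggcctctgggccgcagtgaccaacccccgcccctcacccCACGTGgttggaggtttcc
GRPEL2 before RefSeq start: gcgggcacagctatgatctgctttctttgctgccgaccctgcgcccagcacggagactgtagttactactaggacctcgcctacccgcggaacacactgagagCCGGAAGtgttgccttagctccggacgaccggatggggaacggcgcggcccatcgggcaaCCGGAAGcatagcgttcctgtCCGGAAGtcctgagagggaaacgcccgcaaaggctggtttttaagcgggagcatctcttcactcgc

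DNAJA3 (gene ID 9093, also TID1, chromosome 16 from 4425868 to 4456775) is the J protein that hands substrates to HSPA9. Its raw counts were 54, 203 and 837 in the TR-107 libraries, against 1241, 836 and 392 in the DMSO libraries. The highest library was 12.4 times the lowest in TR-107 and 4.10 times the lowest in DMSO, and the groups overlapped. Its biological coefficient of variation in the edgeR fit was 0.864, against 0.0739 for all genes in common, and 0.138% of the genes tested had a higher one. The log2 fold change of -1.11 ± 1.02 (SE) did not pass (edgeR adjusted p = 0.421), and it ran between -2.44 without the third TR-107 library and -0.55 without the first DMSO library. At this spread a DNAJA3 change of about this size, in either direction, could not be told from none. The smallest detectable change was not computed.

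Genes around DNAJA3 on chromosome 16 were also low or uneven. CORO7 and CORO7-PAM16, on 1 side of it, had 0 counts in all 6 libraries, and PAM16, an import motor subunit that partners HSPA9, had 0 to 6. On the other side NMRAL1 had 254 counts in the third DMSO library and 7 to 22 in the others. HMOX2 had 194 counts in the first TR-107 library and 205 in the second DMSO library, and 18 to 37 in the others. Genes farther out were steadier, with 630 to 1161 counts for TFAP4 and 1354 to 1942 for MGRN1. The cause of this uneven stretch was not tested, and the counts of DNAJA3 are not read as its level.

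TRAP1 (gene ID 10131, chromosome 16 from 3658037 to 3717524) is the Hsp90 of mitochondria. It had 356, 366 and 355 CPM in the TR-107 libraries, against 425, 431 and 419.7 CPM in the DMSO libraries. The groups did not overlap, and the change was small, 1.19-fold lower or -0.24 on the log2 scale, with an SE of 0.04 (edgeR adjusted p = 6.37e-07). In GENCODE v29, 866 of the 2296 bases of its principal transcript lie opposite DNASE1, which had 128 to 202 counts per library.

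CLPB (gene ID 81570, chromosome 11 from 72285495 to 72434531) keeps proteins of the intermembrane space soluble. It had 45.9, 40.1 and 40.3 CPM in the TR-107 libraries, against 56.0, 51.0 and 52.1 CPM in the DMSO libraries. It was 1.26-fold lower or -0.33 on the log2 scale, with an SE of 0.08 (edgeR adjusted p = 0.000193).

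The prohibitins PHB1 and PHB2 alternate in a ring in the inner membrane that holds proteases and other membrane proteins. PHB1 (gene ID 5245, chromosome 17 from 49404052 to 49414882) had 303, 306 and 292 CPM in the TR-107 libraries, against 479, 494 and 477 CPM in the DMSO libraries. Its log2 fold change was -0.69, with an SE of 0.04 (edgeR adjusted p = 5.18e-19), and the groups were far apart. In GENCODE v29, 963 of the 1952 bases of its principal transcript lie opposite an antisense gene. The RefSeq span of PHB1 overlaps no other gene. Which gene models the counting used, and whether it used strand, is not stated. Whether reads of such pairs were told apart is therefore not known.

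PHB2 (gene ID 11331, chromosome 12 from 6965327 to 6970753) had 381, 386 and 414 CPM in the TR-107 libraries, against 419, 437 and 427 CPM in the DMSO libraries. The highest TR-107 library nearly met the lowest DMSO library. Its log2 fold change, the smallest of the called ones, was -0.12 with an SE of 0.04 (edgeR adjusted p = 0.00997). PHB2 lost its call without the first TR-107 library (adjusted p = 0.0697) or the second (adjusted p = 0.0612), which left 6 of the 10 genes called lower.

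The transcripts of the ring's subunits were compared between the groups by their ratio. It is a ratio of raw counts, not corrected for transcript length, and does not measure the proteins of the ring. Per kilobase, as given below, PHB2 stood above PHB1 in both groups. A part of the PHB1 bases that lie opposite an antisense gene in this ratio was not tested. The ratio of PHB2 to PHB1 counts was 1.26, 1.26 and 1.42 in the TR-107 libraries, against 0.874, 0.886 and 0.894 in the DMSO libraries, 1.48-fold higher in TR-107 (exact two-sided permutation p = 0.1).

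**Figure D3:**
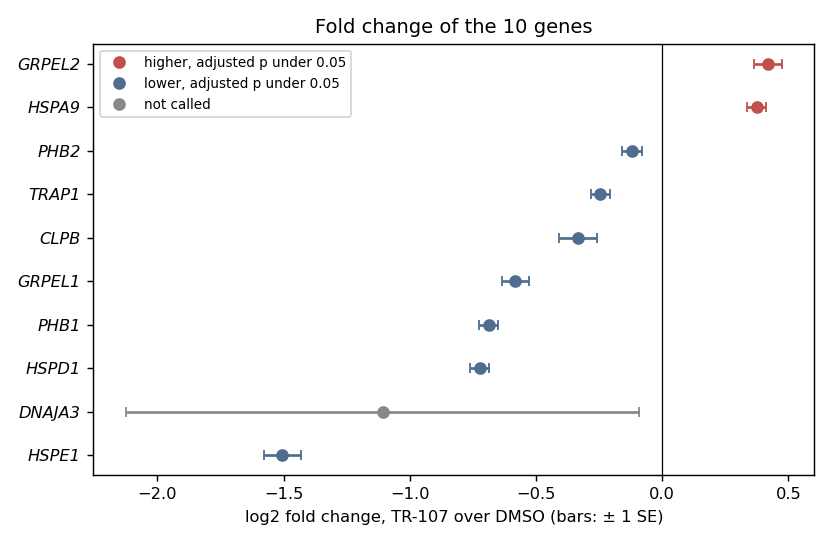
Log2 fold change (TR-107 over DMSO) of the 10 genes from the edgeR fit, with bars of ± 1 SE, in red where called higher, blue where called lower and grey where not called. HSPE1 is lowest at -1.50, GRPEL2 highest at 0.42, and DNAJA3 has the widest error.

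Levels of different genes can be set beside each other only per length of transcript, here as CPM per kilobase of the principal GENCODE v29 transcript. In TR-107, HSPD1 was highest at 578 ± 29.2 CPM per kilobase, followed by PHB2 at 259.8 ± 11.6, HSPA9 at 191.5 ± 5.84, TRAP1 at 156 ± 2.63 and PHB1 at 154 ± 3.84 (SD, n = 3 each). In DMSO, HSPD1 was at 954 ± 36.2 CPM per kilobase, followed by PHB2 at 282 ± 6.22, PHB1 at 248 ± 4.67, TRAP1 at 185 ± 2.55 and HSPA9 at 148 ± 6.10 (SD, n = 3 each). With these lengths HSPA9 stood above TRAP1 and PHB1 in TR-107 and below both in DMSO. The order of genes here and below rests on 1 transcript length per gene. That was 4727 bases for HSPA9, 2296 for TRAP1 and 1952 for PHB1, and other lengths were not tried. TRAP1 and PHB1 overlapped between their libraries in TR-107 and did not in DMSO.

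Below these came HSPE1, with 40.2 ± 6.07 CPM per kilobase in TR-107 and 114 ± 3.72 in DMSO, subject to the shared bases described above. GRPEL1 had 29.7 ± 0.512 CPM per kilobase in TR-107 and 44.5 ± 0.421 in DMSO. GRPEL2 had 24.9 ± 0.907 CPM per kilobase in TR-107 and 18.6 ± 0.0833 in DMSO (SD, n = 3 each), and so stayed below GRPEL1 in both groups. CLPB was at 4.14 ± 0.324 CPM per kilobase in TR-107 and 5.22 ± 0.257 in DMSO (SD, n = 3 each), with a long principal transcript of 10170 bases that bears on this value.

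The transcription factors and relay proteins linked to the mitochondrial unfolded protein response mostly rose. Of 15 genes in that list, 10 rose and 2 fell, and the median of their log2 fold changes was 0.33 (0.01 over all genes tested). For this list and those below, the shares over all genes tested were 29.2% called higher and 28.6% called lower. DDIT3, which encodes CHOP, had 103 ± 5.02 CPM in TR-107 and 6.25 ± 0.761 CPM in DMSO (SD, n = 3 each), a rise of 4.04 on the log2 scale (edgeR adjusted p = 9.90e-34). CEBPB, a partner of CHOP, rose by 1.72 on the log2 scale and ATF4 by 0.96. ATF5, the factor closest to the worm regulator of this response, had 38.9 ± 4.04 CPM in TR-107 and 34.6 ± 4.64 CPM in DMSO (SD, n = 3 each) and did not pass (edgeR adjusted p = 0.112), though it did without the first TR-107 library (adjusted p = 0.0459) or the second DMSO library (adjusted p = 0.0404).

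HSF1, which drives heat shock genes, was slightly higher (log2 fold change 0.17 ± 0.05, SE; edgeR adjusted p = 0.00185). NRF1, a regulator of nuclear genes for mitochondria, and SSBP1, a mitochondrial DNA-binding protein that also acts with HSF1, fell, with log2 fold changes of -0.29 and -0.32. SIRT3, a deacetylase counted among the 10, lost its call in 4 of 15 alternatives. The call of SSBP1 was lost without the first TR-107 library (adjusted p = 0.0522).

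The other effectors of the response moved in both directions, with 2 of 14 higher, 7 lower and a median log2 fold change of -0.20. The number lower was 10 with library size alone in place of TMM, and 6 without the second DMSO library. LONP1, a matrix protease, had 443 ± 8.59 CPM in TR-107 and 273 ± 11.5 CPM in DMSO (SD, n = 3 each), a rise of 0.70 on the log2 scale (edgeR adjusted p = 1.12e-18). YME1L1, a protease of the inner membrane, rose by 0.26 on the log2 scale. PMPCA, a subunit of the peptidase that trims import signals, and TIMM17A, part of the import channel, fell, with log2 fold changes of -0.77 and -0.67. CLPP, the target of TR-107, fell by 0.32. Its unfoldase CLPX, at -0.05, was not called (edgeR adjusted p = 0.545).

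**Figure D4:**
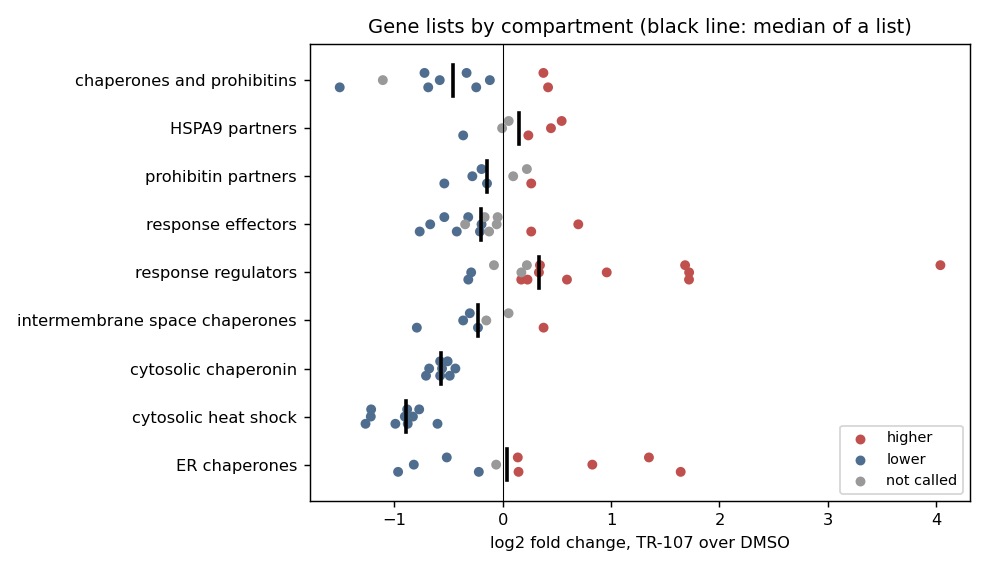
Log2 fold change (TR-107 over DMSO) of each tested gene of 9 gene lists, coloured by its call in edgeR, with the median of a list as a black line. All cytosolic chaperonin and heat shock genes lie below 0, the regulators reach up to 4.04 (DDIT3), and the mitochondrial lists lie on both sides of 0.

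Direct partners of the described genes were mixed. Of the 6 tested partners of HSPA9, 3 rose and 1 fell (median log2 fold change 0.15). DNAJC19, a J protein of the import motor, and TIMM44, which tethers HSPA9 to the import channel, rose by 0.44 and 0.24 on the log2 scale. DNLZ, which keeps HSPA9 soluble, fell by 0.37, and lost that call without the first TR-107 library (adjusted p = 0.136), the second TR-107 library (adjusted p = 0.0567) or the second DMSO library (adjusted p = 0.157). The seventh, PAM16, was too low to test.

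Of 7 partners of the prohibitins, 1 rose and 4 fell (median log2 fold change -0.15). AFG3L2, a subunit of the protease that the ring surrounds, had a log2 fold change of -0.54, and STOML2, a related membrane protein, one of -0.28. The one that rose was YME1L1, which, like AFG3L2 and SPG7, is also among the effectors above. Counts of this list moved with single libraries, to 2 lower without the second TR-107 library and to 2 higher without the first. Of 7 genes for chaperones of the intermembrane space and their import, 1 rose, TIMM9 (0.38), and 4 fell, including TIMM13 (-0.79) and TIMM8B (-0.30). A further one of the 4, TIMM10, lost its call in 7 of 15 alternatives.

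Chaperones of other compartments give the setting. All 8 subunits of CCT, the chaperonin of the cytosol, fell (median -0.57 on the log2 scale), TCP1 at -0.71 and CCT2 at -0.68 being those with the smallest p. HSPD1, at -0.72, lay just beyond the lowest of them. All 10 tested cytosolic heat shock genes fell as well, with a median of -0.89. HSP90AA1, an inducible Hsp90, had 2710.1 ± 42.2 CPM in TR-107 and 5387 ± 202 CPM in DMSO (SD, n = 3 each), and DNAJA1, a cytosolic J protein, fell by 1.22. HSPA1A and HSPA1B, near-identical copies of the inducible Hsp70, had 0 to 2 and 0 to 5 counts per library and were not tested.

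Chaperones of the endoplasmic reticulum were split, with 5 of 10 higher, 4 lower and a median log2 fold change of 0.04. DNAJC3, a J protein among the 5, lost its call in 7 of 15 alternatives, DESeq2 among them (adjusted p = 0.0598). HSPA5 (BiP), the Hsp70 of that compartment, had 2846 ± 141 CPM in TR-107 and 1117 ± 15.6 CPM in DMSO (SD, n = 3 each), a rise of 1.35 on the log2 scale (edgeR adjusted p = 3.13e-30). HYOU1, its exchange factor, rose by 0.83 on the log2 scale. CALR and SDF2L1 fell, with log2 fold changes of -0.82 and -0.97. HSPA5 and HSPA9 were both higher after TR-107, whereas TRAP1, CCT and the cytosolic heat shock genes were lower.

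Library totals were 17264039 to 22243758 gene counts in TR-107 and 18344471 to 23708135 in DMSO. The epithelial markers EPCAM, KRT8, KRT18, KRT19 and CDH1 were all present, at means of 153 to 2694 CPM in TR-107 and 88.3 to 2646 CPM in DMSO, of which CDH1, KRT18 and KRT19 were called higher. Of markers of other cells, PTPRC and CD3E had 0 counts in all libraries, COL1A2 had 0 to 2 and PECAM1 0 to 7, while COL1A1 was at 17.2 CPM in TR-107 and 14.3 CPM in DMSO. Less RNA per cell and fewer cells that express a gene cannot be told apart in these libraries. By whole RefSeq span, introns included, 25 of the 39 genes named by rule overlap another annotated gene, the 10 described genes counted in. Of the 29 others, 17 do, among them DDIT3 (with MARS1), LONP1 (with RPL36), TCP1 (with ACAT2) and ATF5 (with NUP62). Exons were not compared for these, so their counts may be less certain.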

How the data were processed

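Polyadenylated RNA of 6 HCT116 libraries was sequenced. The deposited values are raw counts per NCBI Gene ID, which the authors made with HISAT2 and featureCounts on hg38, per the submitters' processing notes. These also name FastQC and Trimmomatic. Which versions and gene models were used, and how strand and multi-mapped reads were handled, is not stated there. Of 28395 IDs, 27745 matched a symbol in RefSeq's table for GRCh38.p14. Counts were tested with edgeR 4.0.16 (R 4.3.3) by the quasi-likelihood test with TMM scaling, filterByExpr, a robust fit, the group as the only term and Benjamini-Hochberg adjustment over 13767 genes. The SE is the absolute log2 fold change divided by the root of F. The test was also run on simulated counts with 200 changed genes, all genes having the common biological coefficient of variation of 0.0739. Real genes differ in that coefficient and far more of them were called. The simulation therefore does not show how reliable the calls in these libraries are. Within groups, chi-square per degree of freedom was 4 to 6.21, so no 2 libraries lay within sampling noise.

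The 10 genes, the lists and the ratios were chosen with earlier results of these data known. Named genes are the 10 members, up to 2 genes per direction with the smallest p in each list, and 7 regulators and proteases by name. The genes beside DNAJA3 and HSPE1, and OMA1, OPA1, SPG7, SIRT3, DNAJC3 and TIMM10, were named after their values were seen. Alternatives were other scalings and filters, DESeq2 1.42.0, limma-voom (limma 3.58.1), the replicate number as a block, and leaving out each library. Counts limit precision through sampling error alone, and that covers none of the counting choices above.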

Additional observations from a re-analysis of the deposited data

How the results depend on the processing

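Over the 15 alternatives, all 10 genes kept their direction, and the calls of HSPD1, HSPE1, HSPA9, TRAP1, GRPEL1, GRPEL2, CLPB and PHB1 held in each. HSPE1 ran from -1.63 to -1.43, HSPD1 from -0.79 to -0.69, PHB1 from -0.75 to -0.67, HSPA9 from 0.31 to 0.39 and GRPEL2 from 0.35 to 0.45 on the log2 scale. PHB2 (-0.18 to -0.09) lost its call in 2 of them, so that 6 of the 10 were then called lower, and DNAJA3 was called in none (adjusted p 0.142 to 0.748). The number of genes called was 7323 to 8021 overall. With library size alone in place of TMM the median of all genes was -0.05, and 3484 genes were called higher and 4537 lower, against 4015 and 3941 with TMM.

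Same-numbered libraries did not deviate together (Pearson's r across genes -0.0311, -0.0185 and 0.0486), so the numbers were not taken to pair the samples. With the replicate number as a block, 7918 genes were called, with the same 2 and 7 of the 10 genes higher and lower, and of the list genes TIMM10 lost its call (adjusted p = 0.0549). The ratio differences in the paired form were -0.79, 1.00, 0.57 and 1.10 for HSPE1/HSPD1, GRPEL2/GRPEL1, PHB2/PHB1 and HSPA9/HSPD1, where 3 pairs allow no p below 0.25. Without 1 library they ran from -0.92 to -0.67, 0.96 to 1.04, 0.51 to 0.60 and 1.09 to 1.11. Among list genes, OPA1 lost its call in 4 settings, each without 1 library, and SPG7 lost its call in 2 settings, SIRT3 in 4, DNAJC3 in 7 and TIMM10 in 7, the block included. OMA1 gained a call in 3, under limma-voom, under upper-quartile scaling and without the first TR-107 library. A further 6 list genes gained one in 1 to 3 settings, beside ATF5.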
